A study of Mus musculus with 4 samples.

Results

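The open chromatin around 39 nuclear receptor genes was examined in intestinal stem cells of the mouse, out of 21883 protein-coding genes measured. The genes are nuclear receptor genes other than those of bile acid, xenobiotic and Hnf4 function. Their choice rule uses names and no measured value, although the family was picked with earlier results of these data known. Accessible DNA was mapped by ATAC-seq, in which the Tn5 transposase inserts adapters into open chromatin, in 4 libraries from Lgr5-EGFP-IRES-creERT2 mice aged 6 to 12 weeks with no treatment. Of these, 2 libraries came from small-intestinal stem cells sorted as Lgr5-EGFP+/CD24- (SISC) and 2 from large-intestinal stem cells sorted as Lgr5-EGFP+ (LISC), with no CD24 gate named for the latter. The small-intestinal segments lay 2 to 3 cm from the pylorus and from the cecum, and the large intestine was used down to the rectum. All mice thus carried the reporter allele of Lgr5. Whether the replicates were separate mice is not stated, and their spread may be technical. Each library has its own list of peaks called by the authors. Any peaks sharing 1 bp or more across the lists were joined into a region, which was given to a gene when it lay in or within 50 kb of the gene body (mm10). By this rule the 39 genes held 849 of 119852 regions.

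Nuclear receptors are transcription factors, many of which are switched by small lipophilic ligands such as steroids, thyroid hormone, retinoic acid, vitamin D, oxysterols and fatty acids. They bind DNA through a zinc-finger domain at copies or variants of the hexamer AGGTCA, alone or as pairs. Steroid receptors mostly pair with themselves, whereas receptors for retinoids, thyroid hormone, vitamin D and fatty acids pair with a retinoid X receptor. In the intestinal epithelium members of the family are known for roles in nutrient sensing, renewal of the crypt, the daily clock and salt transport.

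The start sites of some of the genes with the clearest results, or with a receptor motif in an open start, are shown first. Each line gives the 250 bases before an annotated RefSeq start (GRCm38.p6), 5′ to 3′ on the strand of the gene, and capitals mark the motifs searched. The Rarb sequence is shown for its textbook retinoic acid response element, the Pparg, Nr6a1, Nr5a2, Thrb and Rarg sequences for AGGTCA under a region called in all 4 libraries, and the Rora sequence because its cover by peaks differed between the groups.
Rarb, chr14:16575477-16575726, minus strand: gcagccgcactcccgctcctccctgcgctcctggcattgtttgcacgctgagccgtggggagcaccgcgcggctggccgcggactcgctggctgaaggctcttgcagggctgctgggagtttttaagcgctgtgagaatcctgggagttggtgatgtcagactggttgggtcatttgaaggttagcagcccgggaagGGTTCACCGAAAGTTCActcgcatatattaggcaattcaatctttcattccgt
Pparg, chr6:115360894-115361143, plus strand: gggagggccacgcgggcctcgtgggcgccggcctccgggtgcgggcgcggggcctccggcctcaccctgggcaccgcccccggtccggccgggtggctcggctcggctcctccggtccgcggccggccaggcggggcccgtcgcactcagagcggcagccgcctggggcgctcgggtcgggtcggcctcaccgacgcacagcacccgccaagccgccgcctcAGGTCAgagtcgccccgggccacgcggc
Nr6a1, chr2:38784516-38784765, minus strand: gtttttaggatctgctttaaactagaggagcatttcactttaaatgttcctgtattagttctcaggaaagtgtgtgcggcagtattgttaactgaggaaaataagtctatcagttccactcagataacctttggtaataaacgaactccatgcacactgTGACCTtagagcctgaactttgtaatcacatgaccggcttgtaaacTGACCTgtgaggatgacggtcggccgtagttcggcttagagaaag
Nr5a2, chr1:136960449-136960698, minus strand: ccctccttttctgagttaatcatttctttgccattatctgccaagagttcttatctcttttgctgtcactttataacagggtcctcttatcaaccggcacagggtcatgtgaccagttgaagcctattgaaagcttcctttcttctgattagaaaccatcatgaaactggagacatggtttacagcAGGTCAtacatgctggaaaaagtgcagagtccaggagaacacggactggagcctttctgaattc
Thrb, chr14:17660710-17660959, plus strand: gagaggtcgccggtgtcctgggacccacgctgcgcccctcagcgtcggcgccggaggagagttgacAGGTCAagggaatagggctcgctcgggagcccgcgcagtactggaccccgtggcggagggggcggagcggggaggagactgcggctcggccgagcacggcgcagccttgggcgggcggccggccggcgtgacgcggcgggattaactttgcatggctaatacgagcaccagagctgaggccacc
Rarg, chr15:102257523-102257772, minus strand: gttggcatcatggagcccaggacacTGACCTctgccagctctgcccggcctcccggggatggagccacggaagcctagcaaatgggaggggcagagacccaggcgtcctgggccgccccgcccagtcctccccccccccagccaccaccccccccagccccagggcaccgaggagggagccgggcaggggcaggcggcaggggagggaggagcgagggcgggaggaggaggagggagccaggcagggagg
Rora, chr9:68653536-68653785, plus strand: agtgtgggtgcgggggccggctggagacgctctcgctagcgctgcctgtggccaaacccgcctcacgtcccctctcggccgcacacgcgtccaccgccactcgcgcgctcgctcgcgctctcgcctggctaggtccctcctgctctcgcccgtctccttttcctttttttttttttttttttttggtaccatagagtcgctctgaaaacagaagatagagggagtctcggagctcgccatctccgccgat

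In the Rarb sequence the capitals mark a direct repeat of the form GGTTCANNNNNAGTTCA, which began 53 bases before the start. Among 21262 start windows of protein-coding genes, each of 300 bases, this was the only 1 that held the motif on either strand. The pattern has the letters of the textbook Rarb element, so its presence there was fixed by the choice of pattern and is no result. AGGTCA was found on either strand in 3129 windows (14.7%) and in 10 of the 56 windows of the nuclear receptor genes (17.9%), a share near that of all windows. The hexamer began 28 bases before the start in Pparg and 64 before it in Nr5a2 and 184 in Thrb. In sequences not printed it began 77 bases before the Nr1d2 start and 9 before another Pparg start, both called in all 4 libraries. It lay 225 bases before the Rarg start and 91 and 45 before the internal Nr6a1 start, there on the opposite strand and so printed as TGACCT. No window of the 56 held 2 copies of AGGTCA as a direct repeat spaced by 1, 4 or 5 bases. Over all 21262 windows these repeats were in 10 (0.047%), 0 and 1 (0.0047%), so their absence from 56 is no feature of the family. Nor did any of the 56 hold the estrogen-related receptor type site TCAAGGTCA, which overlaps AGGTCA and was in 71 windows (0.334%) of all genes. AAAGGTCA, a site type of the Nr4a receptors that also overlaps AGGTCA, was in 277 windows (1.3%) and in 1 window each of Rxra and Rxrg, neither of which was touched by a peak. These matches describe letters in a window and show no binding.

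The lists held 83443 and 93220 peaks in SISC replicates 1 and 2 and 91313 and 88739 in LISC replicates 1 and 2, with a median fold enrichment over background, the authors' value, of 5.76, 4.92, 5.56 and 4.38. Read depth is unknown, so where a list lacks a region, closed chromatin is not thereby shown. Every library held a region at the Lgr5 start and at the starts of all 8 epithelial marker genes. Olfm4, a small-intestinal stem cell marker, had a start region in the SISC libraries alone. The other 9 of 10 stem markers had a start called in all 4 libraries. Of 7 immune markers 6 had no start region in any library, and the summed number of called starts was 1, 0, 1 and 0 in the order just given. Among all genes 32.4% had no start region in any library and 62.1% had one in all 4. Of 12 stromal, endothelial, muscle and glial markers, 7, 7, 6 and 3 had a called start, while Col3a1, Cdh5, Pecam1 and Acta2 had none anywhere. Goblet and deep crypt secretory markers, which a CD24 gate can affect, had 5 of 7 genes with more LISC-only and 0 with more SISC-only regions. Among all genes 26.8% had more LISC-only and 29.2% more SISC-only regions. Of the 10 stem markers 4 had more LISC-only and 5 more SISC-only regions. For enterocyte, tuft and enteroendocrine markers these numbers were equal, at 2 each of 5, 1 each of 4 and 1 each of 5. Of 6 Paneth markers 3 had more SISC-only and 1 more LISC-only regions, with 9 SISC-only and 2 LISC-only regions in all, and 3, 3, 2 and 3 had a called start. Their part in the results that follow was not tested. In a sorted population, fewer open cells and less open DNA per cell cannot be told apart.

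The group-only regions at the nuclear receptor genes were unevenly spread over the genes. Rora had 12 regions that both LISC libraries held and neither SISC library did (LISC-only), Pparg had 10 and Esr1 had 8. None of these genes had a region of the converse kind (SISC-only). Esrrg had the most SISC-only regions, 10, beside 6 LISC-only regions, and Nr2f1 had 4 and 0. In all, 54 of the 849 regions were SISC-only (6.36%, exact 95% interval 4.81 to 8.22) and 79 were LISC-only (9.31%, 7.44 to 11.5), whereas 409 (48.2%) were called in all 4 libraries. Regions in or within 50 kb of any protein-coding gene were SISC-only in 7.77%, LISC-only in 9.12% and called in all 4 libraries in 49.7%, so the family as a whole was near the background. The intervals treat regions as independent and cover counting only.

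**Figure D1:**
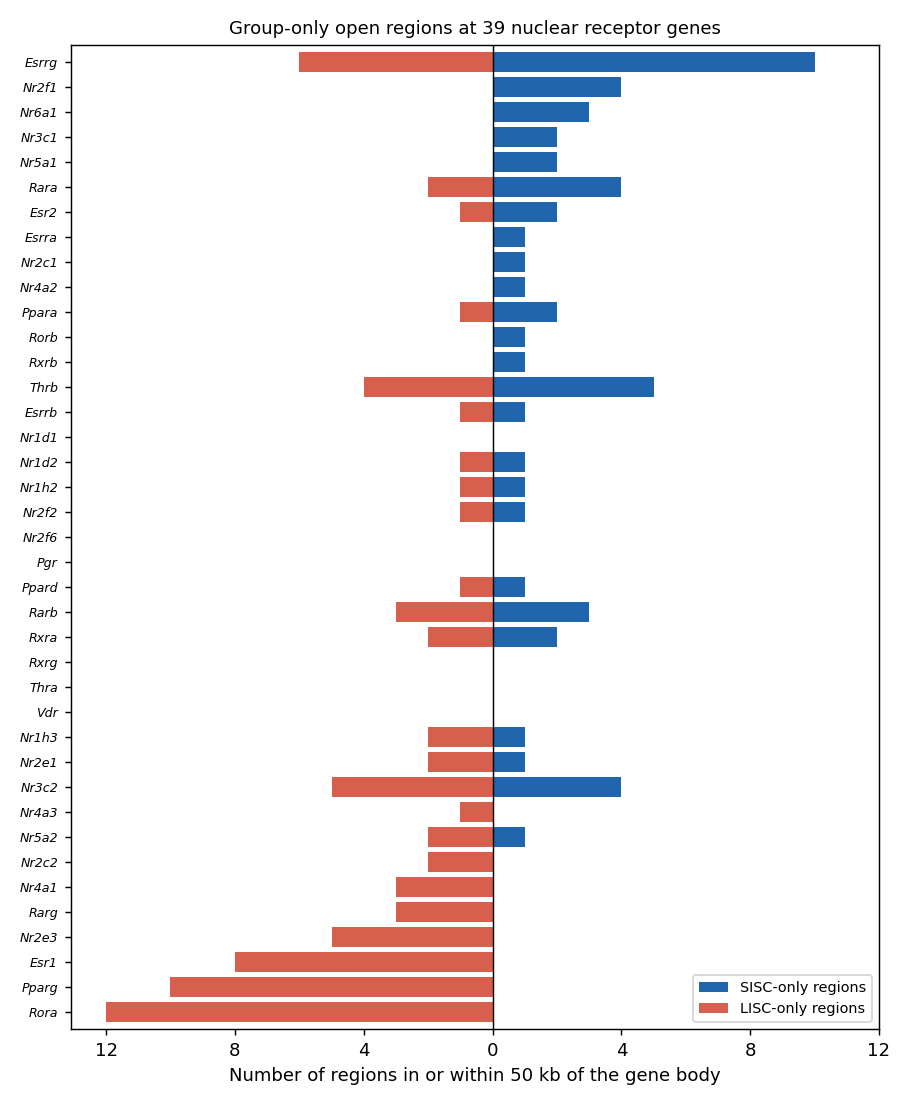
Number of SISC-only regions (blue, to the right) and LISC-only regions (red, to the left) in or within 50 kb of each of the 39 genes, ordered by the difference. Rora, Pparg and Esr1 reach 12, 10 and 8 LISC-only regions with no SISC-only region, and Esrrg reaches 10 SISC-only beside 6 LISC-only regions.

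By gene, 14 members had more SISC-only than LISC-only regions (SISC-leaning) and 12 had more LISC-only regions (LISC-leaning). Among all protein-coding genes 29.2% leaned to SISC and 26.8% to LISC, against 35.9% and 30.8% of the members, and the median difference was 0 in both sets. Another 6 members had no group-only region (Rxrg, Nr2f6, Pgr, Vdr, Thra and Nr1d1), against 34.7% of all genes. As many SISC-only as LISC-only regions, with at least 1 of each, were found at 7 members (Nr1h2, Nr2f2, Nr1d2, Rarb, Esrrb, Rxra and Ppard), against 9.29% of all genes. At least 1 SISC-only region was found at 25 members (46.5% of all genes) and at least 1 LISC-only region at 24 (43.1%). At least 3 SISC-only regions were found at 7 members (8.84% of all genes) and at least 3 LISC-only regions at 10 (9.49%). An excess of 5 or more LISC-only regions was found at 4 members, Rora, Pparg, Esr1 and Nr2e3 (1.47% of all genes), and an excess of 5 or more SISC-only regions at 0 (1.03%). By called regions of any kind, 7 members had more in each SISC library than in either LISC library (19.3% of all genes) and 7 the converse (13.9%). The members are longer than most genes, with a median body of 49.7 kb against 17.2 kb, and held a median of 19 regions against 11. Shares of all genes, here and below, are not matched for length. Among genes of at least 100 kb, the 12 members had a mean of 2.5 SISC-only and 4.25 LISC-only regions, and all 2428 such genes had 1.59 and 2.15. Few genes made up much of these means. Rora, Pparg and Esr1 held 12, 10 and 8 of the 51 LISC-only regions of the 12 members, and Esrrg 10 of the 30 SISC-only regions. By lean, these members split 5 to 5 between SISC and LISC, against 736 to 1080 of all genes of that length. With 2 libraries a group there are 3 splits, so an exact test over libraries cannot go below 0.333 and none is given.

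These totals depended on single libraries, since a group of 1 library admits more group-only regions. Without SISC replicate 1 there were 141 SISC-only regions and 27 SISC-leaning members, and 50.3% of all genes then leaned to SISC. Without SISC replicate 2 there were 93 SISC-only regions. LISC-only regions rose to 130 without the first LISC library and to 124 without the second, the latter with 22 LISC-leaning members beside 35.3% of all genes. The order of the groups in these totals thus changed with the libraries used, whereas Rora, Pparg and Esr1 had more LISC-only regions under each library left out.

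The retinoic acid receptor-related orphan receptors (RORs) and the Rev-Erbs act against each other at shared DNA sites in the circadian clock, RORs as activators and Rev-Erbs (Nr1d1, Nr1d2) as repressors. Rora (chromosome 9, 68653404 to 69388246) had 10 and 9 regions in the SISC libraries and 27 and 25 in the LISC libraries, or 9.5 ± 0.707 against 26 ± 1.41 (SD, n = 2 each). The groups did not overlap, and each LISC library had more regions than either SISC library, as at 13.9% of all genes. All 12 group-only regions were LISC-only, a number reached by 0.137% of all genes, and 11 of them lay inside the gene body, from 137 to 653 kb from the start. They fell into several stretches, with 5 regions between 137 and 172 kb from the start, 2 near 302 and 305 kb, and 3 between 525 and 544 kb. The 12th lay 3.39 kb beyond the gene's far end (69391634 to 69392929). The strongest, 302 kb from the start (68956053 to 68956932), had a −log10 q, the authors' measure of confidence in a peak within its own list, of 93.3 and 46.6 in LISC replicates 1 and 2. Another 9 regions were called in all libraries, among them 1 over the start and 1 inside the gene (69289266 to 69291362) with a −log10 q of 201, 180, 294 and 122 in SISC replicates 1 and 2 and LISC replicates 1 and 2. At the Rora start, peaks of both LISC libraries covered all 300 bases of the start window, of which the 250 upstream are printed above, and those of the SISC libraries lay in the same region but touched none of the window. The SISC peaks there were weak, with a −log10 q of 7.4 and 4.64, as were those of LISC at 11.7 and 10.4.

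The other genes of these families had few group-only regions. Rorb had 1 SISC-only region (−log10 q 9.26 and 7.8) and no LISC-only region among 7 regions. Nr1d1, which overlaps Thra at its end, had 18 of 26 regions called in all libraries and no group-only region, with a start region of −log10 q 307, 204, 337 and 172 in the library order above. Nr1d2 had 5 and 14 regions in the SISC libraries and 6 in each LISC library, and 7 of its 15 regions were called in SISC replicate 2 alone. The SISC count of Nr1d2 thus differed more between replicates than from LISC. Its start was called at a −log10 q of 646, 330, 723 and 372.

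The peroxisome proliferator-activated receptors (PPARs) sense fatty acids and control lipid oxidation and storage. The net of SISC-only minus LISC-only regions was -10 for Pparg, 1 for Ppara and 0 for Ppard. Pparg, which in the colon epithelium is known to be well expressed (chromosome 6, 115360879 to 115490404), had 17 and 18 regions in the SISC libraries and 30 and 32 in the LISC libraries, 17.5 ± 0.707 against 31 ± 1.41 (SD, n = 2 each). The groups did not overlap. All 10 group-only regions were LISC-only, as at 0.265% of all genes for 10 or more, and they lay on all sides of the gene: 4 upstream, 3 in the front of the body and 3 downstream. The strongest LISC-only region of the whole family by its mean rank within the lists was downstream, at 115520177 to 115521131, with a −log10 q of 122 and 60.6. Another downstream region, at 115510020 to 115511250, had 100 and 56.3. Regions called in all 4 libraries included the Pparg start (−log10 q of 111 and 115 in SISC, 177 and 134 in LISC).

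Ppara, the receptor that drives fatty acid oxidation genes, had 21 and 22 regions in SISC and 19 and 18 in LISC, again without overlap between the groups; more regions in each SISC library were found for 19.3% of all genes. Its 2 SISC-only regions lay in the gene body, 10.1 and 38.5 kb from the start. For the stronger, on chromosome 15 from 85774293 to 85775511, the −log10 q was 54.3 and 48.8; for the weaker it was 22.0 and 31.4. The 1 LISC-only region of Ppara lay 22.6 kb beyond the gene, nearer to Ttc38. Ppard, the widely expressed member, had 24 and 28 regions in SISC and 26 and 24 in LISC, with 1 group-only region on each side, of which the LISC-only region lay 1.15 kb from the start (−log10 q 43.1 and 25.3). Its groups overlapped.

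**Figure D2:**
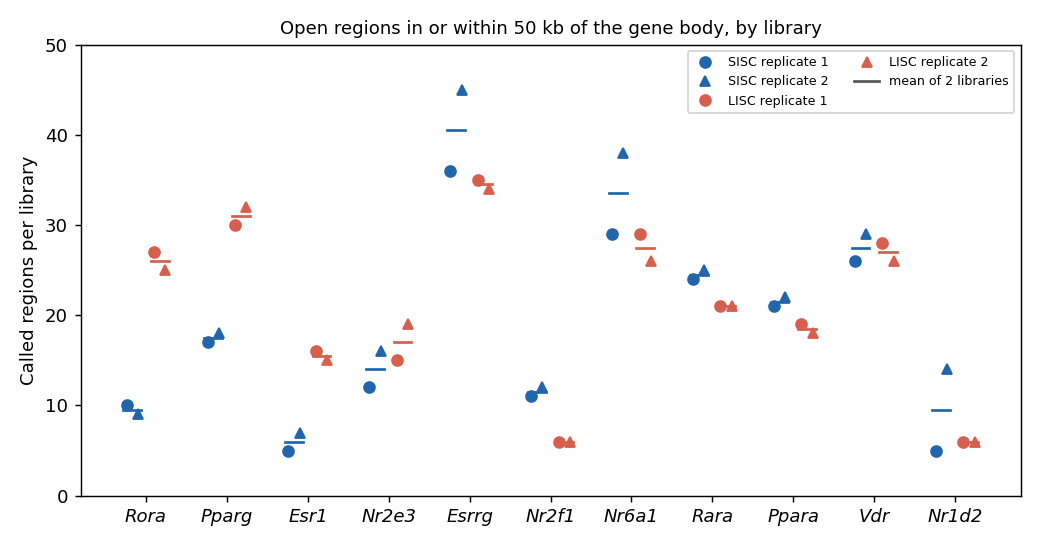
Called regions in or within 50 kb of 11 genes in each library (circles, replicate 1; triangles, replicate 2; blue, SISC; red, LISC), with the mean of the 2 libraries of a group as a short line. LISC libraries lie above both SISC libraries for Rora, Pparg and Esr1 and below them for Esrrg, Nr2f1, Rara and Ppara, and SISC replicate 2 stands apart at Nr1d2.

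Estrogen receptors bind estradiol, and estrogen-related receptors, which bind related DNA sites without a known natural steroid ligand, regulate mitochondrial and energy genes. Esr1 (chromosome 10, 4611989 to 5005633) had 5 and 7 regions in SISC and 16 and 15 in LISC, 6 ± 1.41 against 15.5 ± 0.707 (SD, n = 2 each), with no overlap. Of its 16 regions 8 were LISC-only, as at 0.526% of all genes for 8 or more, none was SISC-only and 5 were called in all libraries. The LISC-only regions clustered at the front of the gene, 3 within 26.4 kb upstream and 3 within 13.3 kb of the start inside the body, with 1 more in the body (4676283 to 4676834, −log10 q 99.7 and 47.0), 33.3 kb from an internal start, and 1 near the far end. The Esr1 start was called in all libraries at a −log10 q of 31.3, 49.7, 42.2 and 45.2. Esr2, the receptor described as the main one in colon epithelium, had 14 regions in each SISC library and 14 and 15 in LISC. Its counts overlapped, and its 2 SISC-only and 1 LISC-only regions all lay outside the gene body.

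Esrrg (chromosome 1, 187608510 to 188214885) had 36 and 45 regions in SISC and 35 and 34 in LISC. The groups did not overlap, although the SISC libraries differed from each other by more than the groups came apart. Its 10 SISC-only regions, a number reached by 0.0411% of all genes, were mostly weak, with a −log10 q of 3.11 to 30.2. The strongest group-only region of Esrrg was LISC-only (187623924 to 187624741, −log10 q 70.0 and 88.5), 14.9 kb from the nearest start. Among the strongest 41721 peaks of each list Esrrg had 2 SISC-only and 3 LISC-only regions, which turns its direction, and without SISC replicate 1 it had 19 and 6. All 4 of its start windows were touched in every library, and the most internal (start at 187997827) had a −log10 q of 288, 178, 150 and 68.2. Esrra, whose start gave the highest −log10 q of the family's starts in both SISC libraries and, level with Nr1d2, in LISC replicate 1 (714, 465, 723 and 359), had 1 SISC-only region (chromosome 19, 6893904 to 6894420, −log10 q 47.4 and 48.1) and no LISC-only region. Esrrb, a factor of pluripotent cells, had 6 regions in each SISC and 7 in each LISC library, without overlap, and 1 group-only region of each kind.

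**Figure D3:**
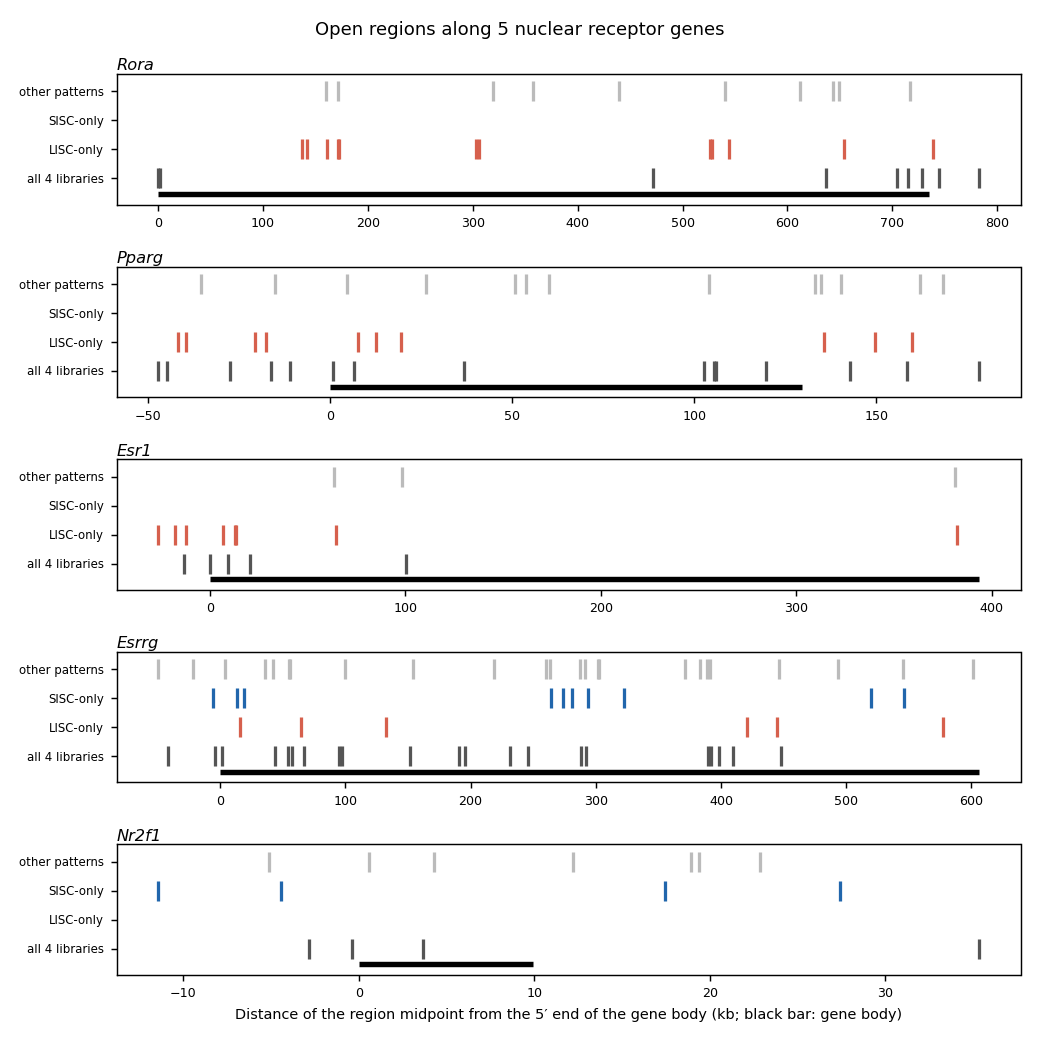
Position of each region along Rora, Pparg, Esr1, Esrrg and Nr2f1, as the distance in kb of its midpoint from the 5′ end of the gene body (black bar), in rows for regions called in all 4 libraries, LISC-only, SISC-only and in other patterns. LISC-only regions of Rora lie deep in the body, those of Pparg on both sides of the gene and most of those of Esr1 near its start.

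Retinoic acid and thyroid hormone receptors bind their sites as pairs with retinoid X receptors and turn from repressors to activators when ligand binds. Rara had 24 and 25 regions in SISC and 21 in each LISC library, without overlap. It had 4 SISC-only regions, as at 3.66% of all genes for 4 or more, and 2 LISC-only regions, and the strongest was SISC-only, inside the gene (chromosome 11, 98947955 to 98948608, −log10 q 38.3 and 67.8). Rarb (chromosome 14, 16430839 to 17082331), itself a classical target of retinoic acid through the element printed above, had 3 group-only regions of each kind and overlapping counts of 19, 24, 22 and 22. Its SISC-only region 160 kb upstream of the tabled start, which is internal to the gene (16735164 to 16735711) was the strongest SISC-only region of the whole family, at 102 and 115. The start with the response element was called in all libraries at a −log10 q of 45.1, 65.4, 62.8 and 40.2, with peaks over all 300 bases of the window. Rarg had 12 and 16 regions in SISC and 17 in each LISC library, without overlap. Its 3 LISC-only regions all lay inside the neighbouring genes Csad or Zfp740, at 23.8 to 39.6 kb from Rarg.

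Thrb (chromosome 14, 17659225 to 18040097) held 5 SISC-only and 4 LISC-only regions, all within the gene body. At least 5 SISC-only regions were found at 2 members, Thrb and Esrrg, and at 1.9% of all genes. The Thrb counts of 25, 29, 27 and 33 overlapped between the groups. Its excess of 1 SISC-only region turned to -7 when the first LISC library was left out and to -1 when the second was. Its leading region was SISC-only (17700293 to 17700639, −log10 q 40.6 and 39.3), and 3 SISC-only regions lay 1.71 to 6.98 kb from an internal start. Thra had 27 and 28 regions in SISC, 29 and 22 in LISC and no group-only region; 5 of its regions were missing from LISC replicate 2 alone. Rxra, the main partner of the other receptors in epithelia, had 20 and 18 regions in SISC and 20 and 21 in LISC and 2 group-only regions of each kind, of which the strongest was LISC-only and intragenic (chromosome 2, 27740032 to 27740761, −log10 q 64.5 and 35.0). Rxrb had 1 SISC-only region 1.86 kb from a start, and Rxrg had none of either kind. All 3 retinoid X receptor genes had a start called in every library.

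Liver X receptors sense oxysterols, and the vitamin D receptor binds calcitriol and controls calcium uptake. Vdr had 26 and 29 regions in SISC and 28 and 26 in LISC, 22 of 34 were called in all libraries and none was group-only. Nr1h3 (LXR alpha) had 7 regions in each SISC and 8 in each LISC library. Its groups did not overlap, but its 1 SISC-only and 2 LISC-only regions lay 14.2 to 43.7 kb from the gene, the SISC-only region in Ddb2 and 1 LISC-only region in Madd (chromosome 2, 91157043 to 91158544, −log10 q 54.9 and 39.9). Nr1h2 (LXR beta), with overlapping counts of 12, 14, 13 and 12, had 1 SISC-only region 2.69 kb and 1 LISC-only region 6.49 kb upstream of a start called in every library.

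Among the orphan receptors of the second subfamily, Nr2f1 (COUP-TFI, known from nervous system and mesenchymal development; chromosome 13, 78188971 to 78198873) had 11 and 12 regions in SISC and 6 in each LISC library, 11.5 ± 0.707 against 6 (n = 2 each, the LISC libraries being equal). The groups did not overlap. Its 4 SISC-only regions lay outside the body, 2 on each side, with a −log10 q of 4.57 to 21.4, so that none remained among the strongest 41721 peaks of each list (7 SISC-only regions without SISC replicate 1). The stromal marker starts called were 7 and 7 in SISC and 6 and 3 in LISC, and their part in the Nr2f1 counts was not tested. Nr2f2 (COUP-TFII) had 11 and 13 regions against 10 in each LISC library, without overlap, and 1 group-only region of each kind. No region lay within 1 kb of the 1 start in the promoter table. A region inside the gene (chromosome 7, 70360694 to 70362260) was called in every library at 252, 245, 310 and 135. Nr2f6 had no group-only region among 13. Nr2e3, a photoreceptor factor, had 5 LISC-only and no SISC-only regions, as at 2.5% of all genes for 5 or more, but only 1 lay in its body and 2 lay in Thsd4, including the strongest (chromosome 9, 60002110 to 60003163, −log10 q 96.2 and 55.1). Its counts of 12, 16, 15 and 19 overlapped, and without SISC replicate 1 it had 3 SISC-only and 5 LISC-only regions. Nr2e1, a neural stem cell factor, had 12 and 14 regions in SISC and 12 in each LISC library, with 1 SISC-only region (−log10 q 6.8 and 5.48) and 2 LISC-only regions (14.7 and 8.02 for the stronger). The testicular receptor genes were little different, with 1 SISC-only region inside Fgd6 for Nr2c1 and 2 LISC-only regions in the body of Nr2c2, 11.8 and 12.8 kb from its start (−log10 q 38.9 and 35.0 for the stronger).

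Steroid receptors of the third subfamily bind cortisol-type hormones (Nr3c1), aldosterone (Nr3c2) and progesterone (Pgr). Nr3c2 (chromosome 8, 76898083 to 77245012), through which aldosterone raises sodium uptake in the colon, had 23 and 27 regions in SISC and 27 and 31 in LISC. The counts met at 27, and its group-only regions split 4 to 5. The 5 LISC-only regions lay within the gene body, led by the one 128 kb from the start (77030534 to 77031629, −log10 q 50.4 and 25.4), whereas 2 of the 4 SISC-only regions lay in the body and the strongest of them was in Arhgap10. Nr3c1 (chromosome 18, 39410545 to 39519421) had 16 and 21 regions in SISC and 16 and 15 in LISC, with 2 SISC-only and no LISC-only regions. The stronger SISC-only region, 17.6 kb outside the gene body (39537016 to 39537532), had a −log10 q of 95.5 and 38.9. An intragenic region of Nr3c1 (39488878 to 39491947), 3070 bp wide, was called in every library at 224, 175, 241 and 108. Pgr had the fewest regions of the family, 2, of which 1 was called in all libraries.

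The Nr4a receptors are immediate-early genes that act without a known ligand. Nr4a1 had 20 and 22 regions in SISC and 24 and 23 in LISC, without overlap, and 3 LISC-only regions, none inside its body and 2 of them in Acvr1b and Atg101. Nr4a2 had 1 SISC-only region 24.3 kb from its body. Nr4a3 had 1 LISC-only region 29.9 kb from its body, although it had 9 regions in each SISC and 8 in each LISC library. Nr5a2 (LRH-1), known in intestinal crypts for supporting renewal and local glucocorticoid synthesis, had 23 and 28 regions in SISC and 27 and 29 in LISC, with overlap. Its 2 LISC-only regions lay 36.5 and 42.5 kb upstream (chromosome 1, 136996916 to 136997537, −log10 q 43.2 and 52.2 for the stronger), and its 1 SISC-only region was weak at 8.95 and 14.1. Nr6a1 (GCNF, a germ cell and embryonic repressor; chromosome 2, 38723369 to 38926461) and its neighbour Nr5a1 (SF-1, of adrenal and gonad) share regions. Nr5a1 had 16 and 17 regions in SISC and 13 and 14 in LISC, without overlap. Nr6a1 had 29 and 38 regions in SISC and 29 and 26 in LISC, which overlapped, and 3 SISC-only regions against 0 LISC-only, of which 2 lay between the genes and counted for both. Without SISC replicate 1 the Nr6a1 count was 12 SISC-only regions. At the internal Nr6a1 start printed above, the peaks had a −log10 q of 73.0 and 82.3 in SISC and 15.0 and 16.5 in LISC, values of separate lists that were not tested against each other.

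Most members had an open start in every library, and none had a start called in 1 group alone. A region within 1 kb of an annotated start (or, for Nr5a1, Thra and Nr3c1, which have no start in the promoter table, of a gene end) was called in all 4 libraries at 35 of 39 members, against 62.1% of all genes. At 0 members was a start called in 1 group alone (each of its libraries and no other), which occurred at 1.28% of all genes for SISC and 0.621% for LISC. The other 4 were Nr2f2, Nr2e1, Nr2e3 and Nr3c1. Nr2f2 had no region at its only tabled start, and for Nr3c1 a gene end was called in SISC replicate 1. Nr2e1 was called in all but LISC replicate 2 and Nr2e3 in the second library of each group. Nr2f2 and Nr3c1 each had a region inside the gene called in every library, described above. Whether these 2 genes have an open start away from the sites examined was not tested. None of the 54 SISC-only and 79 LISC-only regions lay within 1 kb of a member's start, whereas 45 of the 409 regions called in all libraries did. Over all genes such starts held 2.8% of SISC-only, 1.64% of LISC-only and 10.9% of shared region-gene pairs, against 0, 0 and 10.3% for the members. Few group-only regions at starts is thus a feature of all genes and not one of these members. SISC-only regions lay in a member's body in 57.4%, LISC-only regions in 54.4% and shared regions in 51.1%. In the body of another gene lay 14.8%, 12.7% and 26.7%. Median widths were 417 and 476 bp against 859 bp for the shared regions. Regions in or within 50 kb of any protein-coding gene were alike, at 453 and 475 bp against 894 bp. The 5 strongest shared regions away from members' starts lay in the bodies of neighbouring genes. They lay in Ddb2 near Nr1h3, in H2-K1 near Rxrb, in Def6 and Fance near Ppard and in Rpl15 and Nkiras1 near Nr1d2. Their −log10 q was 323 to 742.

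**Figure D4:**
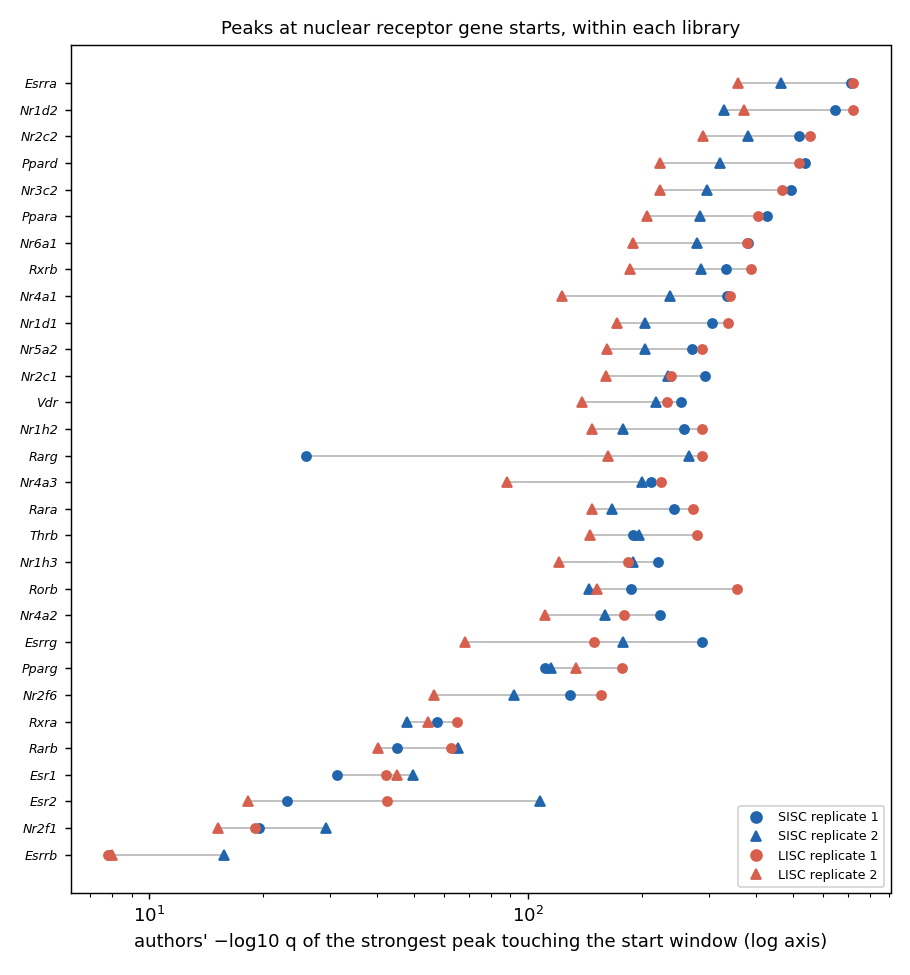
The authors' −log10 q (log axis) of the strongest peak that touches a member's start window in each library, for the 30 members with a value in all 4 libraries, 1 start each. Esrra is at the top and Esrrb at the bottom, and for most genes the values of the 2 groups interleave; values belong to separate lists and are not a measure of change.

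Other genes of the receptor pathways were taken from 8 lists. Coactivators and corepressors, the proteins through which receptors switch transcription, had 3 SISC-leaning and 12 LISC-leaning genes of 22, with a median net of -1 beside 0 for all genes. Leaving out SISC replicate 1 moved all genes from 6396 to 5858 to a split of 11008 to 3707, and this list to 13 to 5. With each of the other libraries left out the coactivator list kept more LISC-leaning genes (7 to 11, 3 to 15 and 4 to 13). Ppargc1a (PGC-1α, a coactivator of PPARs and estrogen-related receptors) had 27 and 31 regions in SISC and 43 and 40 in LISC, without overlap. It had 10 LISC-only and 2 SISC-only regions and a start called in LISC alone, and with each library left out LISC-only regions numbered 11 to 17 and SISC-only regions 2 to 4. The corepressor gene Ncor1 had 5 SISC-only and 4 LISC-only regions and Nrip1, another corepressor, 4 and 5.

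Retinoid metabolism and carrier genes split 10 to 8 of 20 towards SISC. The alcohol dehydrogenase Adh1 had 5 SISC-only and 3 LISC-only regions, its neighbour Adh7 had 2 and 3, and Aldh1a1, a retinoic acid-producing enzyme, had 1 and 5. Outside the rule for named genes, and chosen after their values were seen, the retinol-binding protein gene Rbp2 had a start called in SISC alone and the retinol dehydrogenase gene Rdh1 in LISC alone. Steroid handling and glucocorticoid target genes split 4 to 11 of 17 towards LISC. Cyp11a1, the first enzyme of steroid synthesis, and Zbtb16, a glucocorticoid-induced factor, went against the list with 6 SISC-only and 0 LISC-only regions each, and Hsd17b2 had 3 and 4. Cyp11a1 had 16 and 15 regions in SISC and 8 and 7 in LISC. Scnn1b, a sodium channel subunit induced by aldosterone and likewise chosen after its values were seen, had 5 LISC-only regions and a start called in LISC alone.

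LXR target genes split 2 to 7 of 10 towards LISC. The cholesterol exporter gene Abcg1 had 0 SISC-only and 6 LISC-only regions and 18, 21, 28 and 29 regions in the library order above. Abcg8, a sterol exporter gene (3 and 1), and Lpcat3, of phospholipid remodelling (2 and 1), were the 2 genes that went against the list. PPAR targets split 5 to 6 of 15, with the fatty acid transporter gene Cd36 at 2 SISC-only regions and 1 LISC-only region. Clock genes split 4 to 8 of 15, with Clock and Cry2 at 0 and 4 each and Hlf at 3 and 1. Thyroid hormone handling genes split 4 to 1 of 9, with the deiodinase Dio1 at 0 and 4, the transporter Slc16a10 at 3 and 1 and Klf9 at 2 and 2. Vitamin D targets split 4 to 2 of 8, with Atp2b1 at 3 and 2, Cyp24a1 at 1 and 0 and Cldn2 at 0 and 1. With SISC replicate 1 left out, every list had as many or more SISC-leaning genes than before, as all genes did: steroid 6 to 8, LXR 3 to 4, clock 7 to 5, PPAR 9 to 3, retinoid 14 to 3, thyroid 6 to 1 and vitamin D 5 to 1. Without SISC replicate 2 the thyroid split turned to 2 to 3, beside 7058 to 6548 for all genes. Without LISC replicate 1 the vitamin D split turned to 2 to 4, the thyroid split was 4 to 4, the clock split 6 to 6 and the PPAR split 4 to 10, beside 6956 to 7010 for all genes. Without LISC replicate 2 no list turned. These splits are counts beside the background of 29.2% and 26.8% and carry no test.

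**Figure D5:**
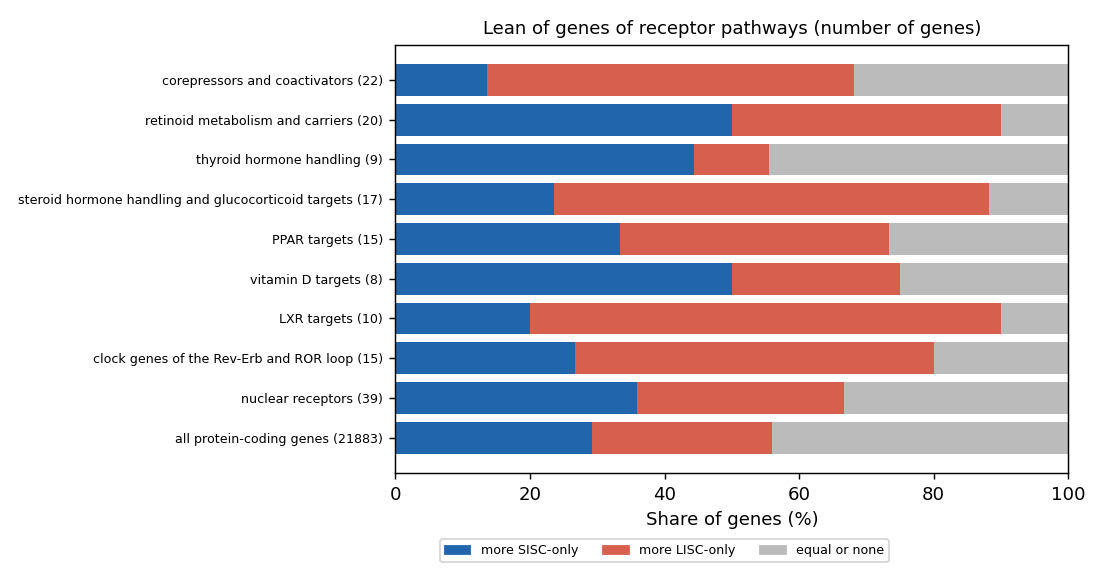
Share of genes (%) with more SISC-only regions (blue), more LISC-only regions (red) or equal numbers or none (grey) in the 8 pathway lists, the 39 nuclear receptors and all 21883 protein-coding genes, with the number of genes in brackets. Coactivator, steroid, LXR and clock lists have more LISC-leaning than SISC-leaning genes. Without SISC replicate 1, when 50.3% of all genes lean to SISC and 16.9% to LISC, the coactivator, clock and PPAR splits turn.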

How the data were processed

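ATAC-seq libraries of sorted stem cells (50000 cells lysed and 10 PCR cycles, per the labels) were used as deposited peak lists. The tools named in the submitters' processing notes are MACS2 2.2.7.1, Bowtie2 2.3.4.1, cutadapt 3.4, bedtools and Picard, with the build mm10. How they were set is not given in the sources used here, and of a Tn5 read shift only a tn5 tag in the peak names speaks. Peaks were called per library, since peak names carry 1 library's name. The authors deposited for each peak a fold enrichment (a ratio), a −log10 p and a −log10 q (lowest values 2.04 to 2.42), and a whole-number score of 10 times the −log10 q, not used here. These values were used only to describe, rank or filter peaks within a list.

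Regions on chromosomes 1 to 19, X and Y were merged and given to genes of the RefSeq table of GRCm38.p6, which shares coordinates with mm10. All 39 members matched; 36 had a start in the RefSeq promoter table, as had 17491 of 21883 genes. A region near several genes counted for each: the members' 888 region-gene pairs came from 849 regions. The members and lists were chosen with earlier results of these data known. Members with at least 3 group-only regions are described in full, with the 8 strongest group-only regions per direction, 5 shared regions and up to 3 genes per list; a few genes the rule names are not reported here. Of 116 distinct pathway gene symbols listed 115 matched. The one left, Bmal1, is another symbol of Arntl, which matched. Alternatives varied the distance, peak threshold, overlap, region definition and libraries. Merging and assignment were tested on simulated data and run with pandas 2.3.3, numpy 2.4.6, scipy 1.17.1 and matplotlib 3.10.9 under Python 3.11.15.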

Additional observations from a re-analysis of the deposited data

How the results depend on the processing

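Rora, Pparg, Esr1 and Nr2e3 kept more LISC-only regions, and Ppara and Rara more SISC-only regions, under all 12 alternatives to the region counts. The net of Rora ranged from -17 to -7, of Pparg from -15 to -3, of Esr1 from -10 to -2 and of Nr2e3 from -6 to -1. Fewer regions enter when distance or list is cut. In the gene body alone there were 31 SISC-only and 43 LISC-only regions and 7 LISC-leaning members, and within 10 kb 50 LISC-only regions and 7 LISC-leaning members. Limiting every list to its 41721 strongest peaks gave 32 and 41. With 1 library left out, SISC-only regions ranged from 68 to 141, LISC-only regions from 88 to 130, SISC-leaning members from 10 to 27 and LISC-leaning members from 8 to 22. A start, or for Nr5a1 and Nr3c1 either gene end, was called in 1 group alone at few members. This was 1 member among the strongest peaks (Nr5a1) and 1 under a demand of 50% cover (Pgr). With a library left out it was 0 to 1 (Nr3c1 or Nr2e1). Small nets turned: to 1 for Nr5a2 and Nr2e1 in the gene body, Nr5a2 within 10 kb, and Nr5a2, Nr1h3, Nr3c2, Nr2e1 and Rarg among the strongest peaks, where Esrrg stood at -1; to -1 for Esr2 at equal list length; to 2 for Nr1h3 and 1 for Nr2e1 at 50% cover; to 1 for Nr2e1 without SISC replicate 1 or 2; and to -7 and -1 for Thrb without LISC replicate 1 and 2 (range -7 to 3). Taking either gene end for the start, and leaving libraries out of the lists, were chosen after seeing the data. No paired analysis was possible because the results are counts of called regions with no test to which a block could be added, and the labels give replicate numbers without saying what they share. Read depth is unknown, so weak regions of 1 list cannot be told from missed ones.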

Other observations

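Regions called in a single library were most numerous in SISC replicate 2. Of the 849 regions at nuclear receptor genes, 84 were called there alone, against 29 in SISC replicate 1, 41 in LISC replicate 1 and 49 in LISC replicate 2; over all regions the numbers were 11016, 2780, 5710 and 6132. Regions missing from 1 library alone numbered 32 for SISC replicate 1, 9 for SISC replicate 2, 14 for LISC replicate 1 and 24 for LISC replicate 2. At the 849 regions, 73.7% of regions called in either SISC library were called in both, and 77.6% for LISC, against 60.2% to 63.4% for pairs between groups; over all regions the within-group shares were 76.3% and 77.9% and the between-group shares 59.3% to 62.0%, near those of the members.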
